A study of Mus musculus with 20 samples.

Results

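Developmental and positional transcription factors were examined across 5 adult mouse tissues: the Hox, Dlx, Lhx, Nkx, Pax, Meis, Pbx, Tbx, Sox, Fox and Zic families and that of Six4. A gene was taken by its symbol alone. It had to begin with a family name followed by a digit (for Fox, a letter and then a digit) and had to be the only symbol of its probe set, a group of oligonucleotides that reads 1 transcript. This gave 118 of the 8251 genes with a single-symbol probe set, read by 154 of the 12422 non-control probe sets. Where a gene had several probe sets (28 genes), the one with the highest mean log2 level stood for it. The Fox family held 26 genes, Sox 13, Dlx, Nkx and Pax 8 each, Lhx 6, Tbx 4, Meis 3, Zic 3 and Pbx 2, and the family of Six4 held 5. The Hox clusters gave 32, of which 11 lay in Hoxa, 9 in Hoxb, 5 in Hoxc and 7 in Hoxd. Noncoding RNAs named for a neighbouring gene made up 3 of the 118 (Dlx1as, Dlx6os2 and Hoxa11os).

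The series concerns sleep apnea and glucose metabolism and holds 20 expression arrays of total RNA, 1 per sample. A panel of 12 arrays covers brain, heart, lung and skeletal muscle of C57BL-6J mice aged 20 weeks. Each tissue has 1 control array (neither hypoxia nor fragmented sleep), 1 sleep fragmentation array and 1 hypoxia array. The other 8 arrays are of subcutaneous adipose of mice at 12 weeks of age, with 2 arrays each of Con NonHyp, Con Hyp, Glucose NonHyp and Glucose Hyp. The adipose labels name 2 strains, C57BL-6J and C57BL-6J-Lep (the latter with an obesity gene), and give neither the strain of an array nor the meaning of Con and Glucose. In the adipose hypoxia protocol oxygen dropped from 20.9% to 5% over 30 sec and returned to 20% over 30 sec, for 16 hours a day over 5 days. Neither pooling of animals nor separate animals for replicate arrays is stated, so p-values measure the spread between these arrays, which may be technical.

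These families are the main DNA-binding regulators that set body axes and organ identity in the embryo. Hox genes lie in 4 clusters and are used along the body axis in the order of their place in the cluster, with low paralog numbers towards the head and high numbers towards the tail, and Meis and Pbx proteins bind DNA beside Hox proteins as cofactors. Fox, Sox, Tbx, Nkx and Pax proteins each contact DNA through a domain that names the family, and many stay active in adult cells that keep the identity they helped to set.

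Panel values below are intensities after quantile normalization, listed in the order control, fragmentation, hypoxia. Adipose values are as deposited, in the order Con NonHyp, Con Hyp, Glucose NonHyp, Glucose Hyp with 2 arrays each. The brain hypoxia array had a deposited median of 1480.2 against 349.4 to 412.6 on the other 11 panel arrays, and the adipose medians were 264.8 to 293.9. Of the adipose values, 17.44% to 21.11% per array lay at or below 0, against none in the panel. Arrays of 1 panel tissue correlated at 0.932 to 0.971 across probe sets and arrays of different tissues at 0.717 to 0.893. All 5 neuron markers were kept (as defined below) in brain, all 5 cardiomyocyte markers in heart and 4 of 6 muscle fibre markers in muscle. Of the latter Tnnt3 read 16104 to 17410 in muscle and 45.2 to 1533 in the other panel tissues, with 1533 on the lung hypoxia array. Acta1, however, read 564 to 1605 in muscle against 4943 to 6424 in heart. It read 9992.5 on the lung hypoxia array and 7857.7 on the brain control array. The chosen probe set of Pvalb read 0.4 to 566 in muscle against up to 5018 in brain. The airway gene Scgb1a1 stood at 12924 on the brain control array and 8720 on the lung fragmentation array. The lungs also carried all 5 cardiomyocyte markers (summed intensity 12567.1 to 19246.2, against 40202.2 to 61250.1 in heart), and the lung epithelial gene Sftpc was not brighter in lung than elsewhere, at 10 to 893, while Sftpb stood at 4516 to 7332 there. The adipose arrays carried skeletal muscle fibre markers at very different levels, with sums of 14291.7 to 158674.6.

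The proximal promoters of 6 genes that mark a tissue in these data are printed to show how unlike their sequence is. Each is the window from 250 bases before to 50 bases after the RefSeq transcription start in GRCm38.p6, written 5′ to 3′ on the gene's strand, with every CG dinucleotide in capitals. Zic1 (brain) is at chr9:91365719-91366018 on the minus strand, Sox2 (brain and lung) at chr3:34649745-34650044 on the plus strand and Nkx2-5 (heart) at chr17:26841516-26841815 on the minus strand. Foxa1 (lung) is at chr12:57546062-57546361 on the minus strand, Hoxa5 (lung) at chr6:52204538-52204837 on the minus strand and Hoxd8 (muscle) at chr2:74704365-74704664 on the plus strand.
Zic1: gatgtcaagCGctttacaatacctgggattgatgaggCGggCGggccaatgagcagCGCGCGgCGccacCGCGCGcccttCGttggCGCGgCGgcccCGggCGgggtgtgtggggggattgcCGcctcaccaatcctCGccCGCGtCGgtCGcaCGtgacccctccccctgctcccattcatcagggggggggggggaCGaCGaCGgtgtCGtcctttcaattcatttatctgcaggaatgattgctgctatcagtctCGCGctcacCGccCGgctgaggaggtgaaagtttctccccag
Sox2: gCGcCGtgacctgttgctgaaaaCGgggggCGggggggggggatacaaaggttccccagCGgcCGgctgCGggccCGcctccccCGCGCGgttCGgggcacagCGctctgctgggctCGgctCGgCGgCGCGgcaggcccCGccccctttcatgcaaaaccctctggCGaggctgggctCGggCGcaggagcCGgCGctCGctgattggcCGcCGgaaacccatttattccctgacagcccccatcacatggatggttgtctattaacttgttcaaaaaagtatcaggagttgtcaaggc
Nkx2-5: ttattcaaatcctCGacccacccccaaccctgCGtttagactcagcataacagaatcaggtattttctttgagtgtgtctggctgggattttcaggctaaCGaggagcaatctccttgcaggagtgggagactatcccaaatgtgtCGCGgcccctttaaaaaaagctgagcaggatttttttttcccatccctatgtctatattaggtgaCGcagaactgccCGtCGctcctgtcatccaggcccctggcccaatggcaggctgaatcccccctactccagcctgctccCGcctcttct
Foxa1: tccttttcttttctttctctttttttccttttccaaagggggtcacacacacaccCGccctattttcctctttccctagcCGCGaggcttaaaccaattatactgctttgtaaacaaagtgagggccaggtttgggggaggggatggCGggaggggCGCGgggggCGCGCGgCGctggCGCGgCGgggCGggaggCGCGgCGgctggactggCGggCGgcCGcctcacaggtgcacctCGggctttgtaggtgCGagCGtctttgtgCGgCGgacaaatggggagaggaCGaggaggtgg
Hoxa5: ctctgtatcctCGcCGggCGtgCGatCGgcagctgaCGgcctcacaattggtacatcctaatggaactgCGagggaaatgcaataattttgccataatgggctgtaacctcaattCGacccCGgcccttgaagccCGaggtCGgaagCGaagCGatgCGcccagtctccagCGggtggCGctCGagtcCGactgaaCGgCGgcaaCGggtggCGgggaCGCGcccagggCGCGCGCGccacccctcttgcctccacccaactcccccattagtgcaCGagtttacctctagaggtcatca
Hoxd8: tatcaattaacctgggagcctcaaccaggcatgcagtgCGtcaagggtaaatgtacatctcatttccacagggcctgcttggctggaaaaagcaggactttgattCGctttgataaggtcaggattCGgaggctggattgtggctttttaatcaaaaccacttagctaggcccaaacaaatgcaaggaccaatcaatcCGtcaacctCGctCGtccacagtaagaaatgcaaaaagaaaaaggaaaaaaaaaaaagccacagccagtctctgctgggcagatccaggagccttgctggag

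The Zic1 window held 31 CG dinucleotides, the Hoxa5 window 29, the Sox2 window 27 and the Foxa1 window 26, while Nkx2-5 had 9 and Hoxd8 had 6. RefSeq windows were matched for 77 of the 118 genes, which gave 95 windows, and their median was 15 CG (quartiles 10 and 26) against 7 (quartiles 3 and 20) over all 32851 windows of that length. The GC-box letters GGGCGG, searched on both strands, were present in 54.7% of the windows of these genes and in 35.7% of all windows. The TATA letters TATAAA were present in 12.6% and 13.6%, and the homeodomain core TAATTA in 5.26% and 5.29%. Among the 6 printed windows GGGCGG was found in Zic1, Sox2 and Foxa1, and neither of the other motifs was found in any. Windows of genes kept in at least 1 tissue had a median of 16.5 CG and those of the others 15. These are letter matches in a fixed window and say nothing on whether a factor binds there.

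A gene was called kept in a tissue when its deposited value lay at or above the 60th percentile of the array's probe sets on every array of that tissue, and low when it lay under the 40th percentile on every array. This ranks probe sets whose brightness per unit of RNA differs, so it describes the arrays and not the order of abundance. Lung kept 27 genes (22.9%, against 35.6% of all probe sets), muscle 23 (19.5%, against 33.4%), brain 19 (16.1%, against 34.6%), heart 14 (11.9%, against 33.9%) and adipose 13 (11%, against 28.1%). In every tissue the share was below that of all probe sets. Kept in none of the 5 tissues were 76 genes (64.4%, against 47.9%), and kept in all 5 were 5 genes (4.24%, against 16.7%). Exactly 1 of the 4 panel tissues kept 23 genes (19.5%, against 12.6%). No test was made of these shares.

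**Figure D1:**
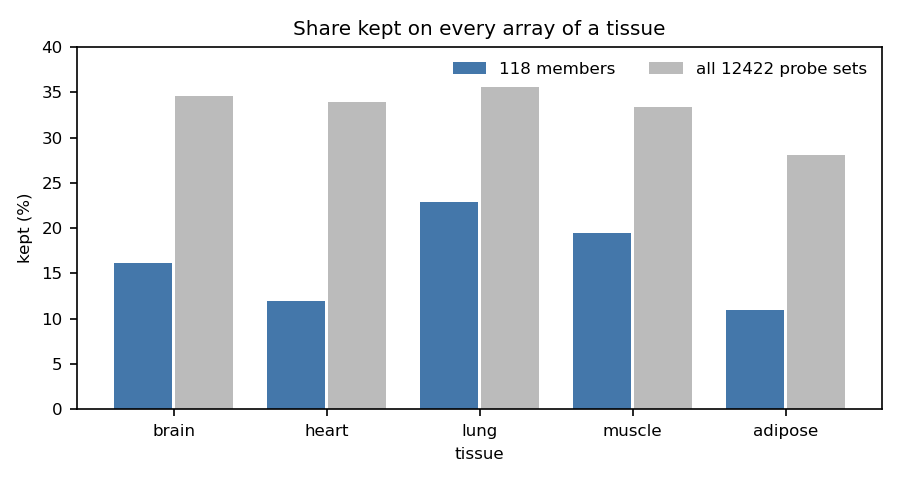
Bars give the percent of the 118 genes (blue) and of all 12422 probe sets (grey) that lay at or above the 60th percentile on every array of a tissue, by tissue. The blue bars stand at 11% to 22.9% and each is shorter than the grey bar beside it.

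The 23 genes kept in 1 panel tissue divided as 4 in brain (Lhx1, Nkx6-2, Pax6, Zic1), 10 in lung (Foxa1, Foxa2, Foxf1, Foxj1, Hoxa5, Hoxb5, Pax5, Pbx2, Sox11, Tbx2), 9 in muscle (Hoxa11os, Hoxa2, Hoxb7, Hoxd10, Hoxd8, Lhx6, Six4, Sox6, Tbx15) and none in heart. Nkx2-5 missed in heart because 1 of its 3 arrays, the fragmentation array, lay below the 60th percentile. Some families were kept nowhere: none of the 8 Dlx genes and none of the 3 Meis genes was, and of the 8 Nkx genes only Nkx6-2 was. The Sox family had 9 of 13 genes kept in some tissue. On all 12 panel arrays 34 genes lay under the 40th percentile, among them Foxc1, Foxc2, Hoxd12, Hoxd13, Dlx3, Pax8 and Pax9. For those a failed probe set and an absent transcript cannot be told apart.

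**Figure D2:**
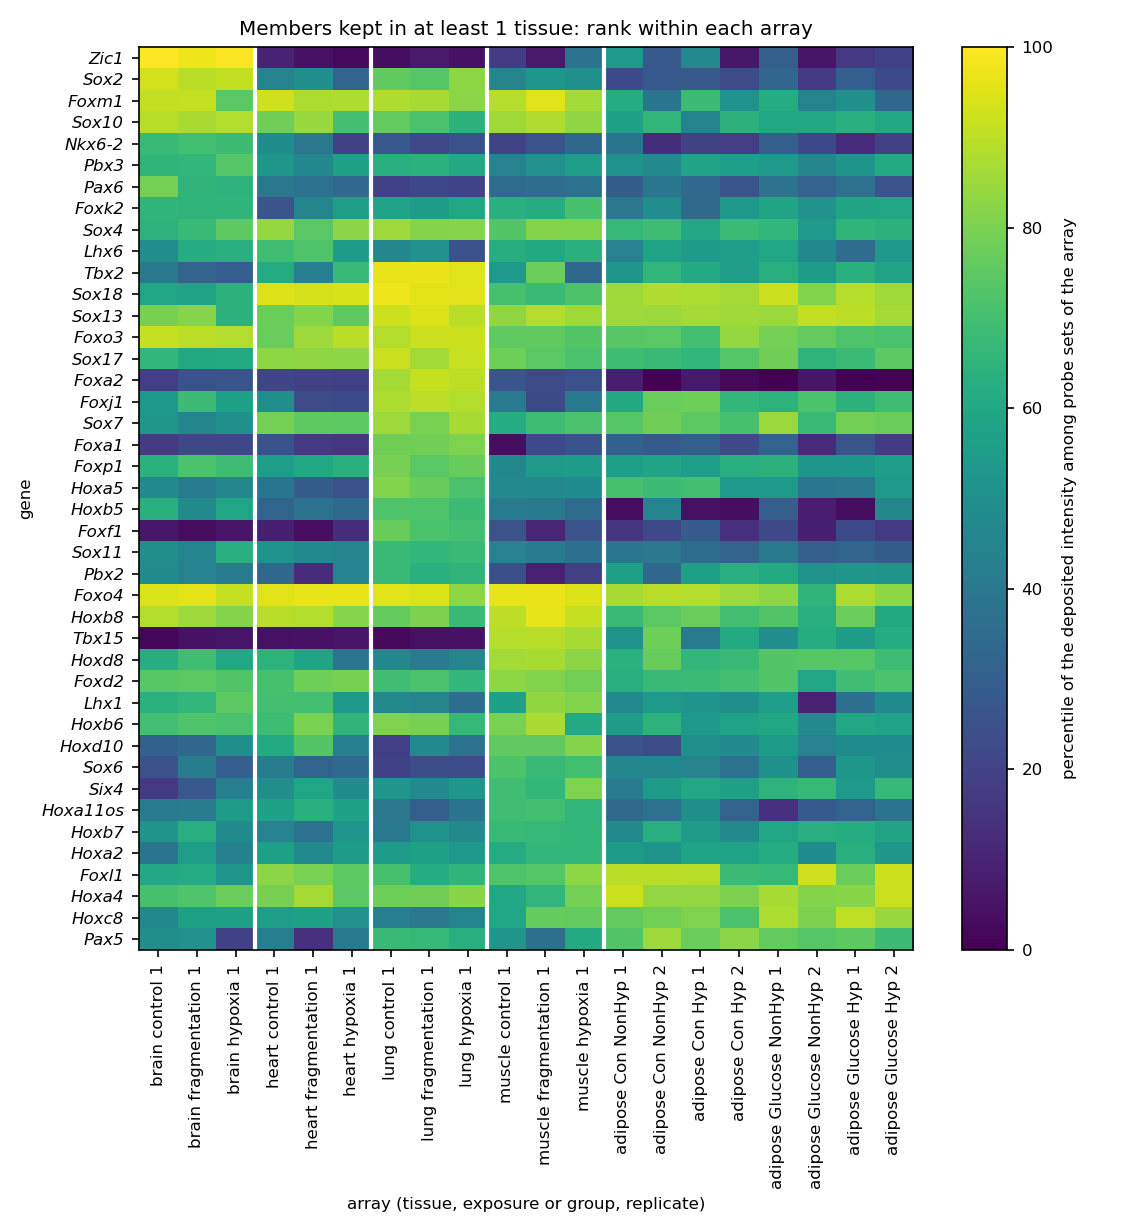
Each row is 1 of the 42 genes kept in at least 1 tissue and each column 1 of the 20 arrays, with white lines between tissues. Colour is the percentile of the deposited intensity among the probe sets of that array, and blocks of yellow mark Zic1 in brain, Tbx2 and Foxa2 in lung and Tbx15 in muscle.

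The panel was tested with limma on log2(intensity + 97.9), which understates the change of dim genes. Any difference among the 4 tissues was called at an adjusted p under 0.05 for 67 of the 118 genes, 56.8%, against 59.4% of all probe sets tested. Hence the share that varied between tissues was near that of the array as a whole. Of the 34 genes that were low on all 12 arrays, 7 were called, and 17.3% of all probe sets that were low on all 12 were. In each tissue comparison below a tissue's 3 arrays were set against the mean of the other 3 tissues, and a difference is given in log2 units ± its SE.

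The largest positive differences in brain were those of Zic1, Sox2, Nkx2-2, Nkx6-2 and Pax6. Brain was higher for 14 genes (11.9%; 16.0% of all probe sets) and lower for 18 (15.3%; 16.9%). Among these, 10 of those higher and 6 of those lower also had all 3 brain arrays beyond the other 9, which was so for 9.43% and 5.95% of all probe sets. Zic1, a zinc finger factor of cerebellar and dorsal neural development, read 13200.1, 6899.9 and 12058 in brain and 18.2 to 287 on the other 9 arrays. The groups were far apart, and the difference was 6.09 ± 0.26 (adjusted p = 1.4e-07). Sox2, a factor of neural stem cells and of airway epithelium, read 3615, 2678 and 2961 in brain, then 1308, 1200.1 and 1819.8 in lung, and 218 to 534 in heart and muscle. Brain lay above lung, and lung above both others, with no overlap (brain 2.12 ± 0.21, adjusted p = 3.4e-05; lung 0.71 ± 0.21, adjusted p = 0.019).

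Pax6, needed for cortex, cerebellum and eye, read 1529.8, 875 and 843 in brain and 105 to 317 elsewhere. It had the largest difference of the genes whose 3 lung arrays lay below the other 9 (105 to 119.7; lung -1.37 ± 0.16, adjusted p = 0.00011). The oligodendrocyte factors Nkx2-2 (549 to 721 in brain, 18.7 to 176 elsewhere) and Nkx6-2 (935 to 1033, against 103 to 459) were higher in brain by 1.99 ± 0.18 and 1.94 ± 0.27, with adjusted p of 1.9e-05 and 0.00032. In both the brain arrays stood apart from all the others. Sox1, a neural progenitor factor, was 347 to 451 in brain and 105 to 202 elsewhere, and the Hox cofactors Meis3 and Meis2 were higher by 1.10 ± 0.12 and 0.96 ± 0.17 without reaching the kept range. By its chosen probe set Sox10, the oligodendrocyte and neural crest factor, was bright in brain (2291 to 2596) and nearly as bright in muscle (1861 to 2424). Its other probe set was higher in brain by 1.28 log2 units. That probe set was low in heart, lung and muscle, with a muscle difference of -0.63 (limma adjusted p = 0.016). Lowest in brain relative to the rest were Sox18, Six4, Sox7 and Sox17, at -1.84 ± 0.13, -1.47 ± 0.24, -1.34 ± 0.15 and -1.16 ± 0.14. The brain arrays also had the lowest summed endothelial markers (1399.5 to 1621.1), whose part in the Sox values was not tested.

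The largest positive differences in lung were those of Foxa2, Tbx2, Foxa1, Foxf1 and Foxj1. Lung was higher for 24 genes (20.3%; 20.8% of all probe sets) and lower for 31 (26.3%; 24.9%), and all 3 lung arrays lay beyond the other 9 for 19 and 11 of these (12.0% and 11.0% of all probe sets). Foxa2 and Foxa1 open chromatin in the endoderm and airway epithelium. Foxa2 read 2186, 2994 and 2777 in lung and 93.5 to 157 on the other 9 arrays, a difference of 3.61 ± 0.14 (adjusted p = 2.3e-07). Foxa1 read 1469, 1474 and 1645 in lung and 24.3 to 147 elsewhere (3.04 ± 0.20, adjusted p = 3.7e-06). Neither overlapped between lung and the rest.

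Foxf1, which acts in lung mesenchyme and capillary formation, read 1370.5, 1109.9 and 1038 in lung and 21.5 to 151 elsewhere (3.02 ± 0.15, adjusted p = 7.8e-07). Its relative Foxf2 was higher by 1.69 ± 0.15 at much dimmer levels, 241 to 398 against 9.83 to 52.8. Both Foxf genes therefore stood apart in lung. Foxj1, which switches on motile cilia, read 2376, 2799.8 and 2469 in lung and 124 to 976 elsewhere, with brain (551 to 976) next (2.59 ± 0.31, adjusted p = 0.00012). Tbx2, a T-box repressor of lung mesenchyme, read 5876, 6034 and 4673 in lung, where 192 to 1393 was the range elsewhere (3.33 ± 0.38, adjusted p = 9.4e-05). Tbx3, its closest relative, was higher by 1.38 ± 0.25, at 558 to 631 against 53.6 to 272. The patterning cofactor Pbx2 (811 to 954 against 46.2 to 451) and Sox11 (893 to 942 against 270.2 to 792) were higher as well, by 1.70 ± 0.23 and 0.96 ± 0.18.

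The endothelial trio Sox18, Sox17 and Sox7, which steer vessel and lymphatic identity, was higher in lung by 1.81 ± 0.13, 1.14 ± 0.14 and 1.10 ± 0.15. Sox18 read 6626, 5018 and 4741 in lung, 3820.3 to 4360.3 in heart, 944 to 1118 in muscle and 671 to 834 in brain. Its 4 tissues were thus separated without overlap. Endothelial markers were summed at 14034.2 to 15411.6 in lung, 5186.1 to 7229.3 in heart, 2466 to 4373.3 in muscle and 1399.5 to 1621.1 in brain, the same order. Among these markers Pecam1 did not follow that order, at 433.3 to 600 in lung and 606.6 to 956.6 in heart. The part of endothelium in the Sox values was not tested. The lowest in lung with no overlap were Pax6, Lhx1, Sox6 and Hoxa11os. Of these Lhx1 (264 to 434 in lung, 549 to 1849.9 elsewhere; -1.28 ± 0.30, adjusted p = 0.0066) no longer passed without the lung hypoxia array (adjusted p = 0.054), and without that array lung had 35 genes called in place of 55.

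Heart had the fewest genes called of the 4 tissues. It was higher for 5 genes (4.24%; 11.8% of all probe sets) and lower for 15 (12.7%; 12.0%), and its 3 arrays lay above the other 9 for 2 genes (4.08% of all probe sets) and below for 2 (1.71%). Nkx2-5, the cardiac homeobox factor, read 1925, 404 and 1867 in heart and 77.8 to 145 elsewhere, a difference of 2.65 ± 0.33 (adjusted p = 0.00035). The fragmentation array was the low one, yet still above every array of the other tissues. The lungs, with bright cardiomyocyte markers, read 77.8 to 117 for Nkx2-5. Hoxa13, a gene of limb tips and the hindgut, was dim but higher (454, 158 and 307 against 42.3 to 151; 1.17 ± 0.18, adjusted p = 0.0015), with the low heart array close to the top of the rest. Hoxa5 (148 to 302 against 341 to 1652) and Hoxa3 (73.5 to 89.8 against 104 to 440.1) were lower by 1.26 ± 0.15 and 1.01 ± 0.22 on the log2 scale. Hoxa3 lost its call without the heart control array (adjusted p = 0.058).

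In skeletal muscle Tbx15 had the largest positive difference, followed by Sox6, Hoxd8 and Hoxd10. Muscle was higher for 25 genes (21.2%; 18.6% of all probe sets) and lower for 21 (17.8%; 19.0%). Its 3 arrays lay above the other 9 for 17 of the 118 genes (14.4%), where 6.58% of all probe sets did, and below for 5 (4.68% of all probe sets). Tbx15, a T-box factor of glycolytic fibres and limb and trunk mesenchyme, read 2570.4, 2601 and 2258 in muscle and 14.5 to 32.2 on the other 9 arrays. No overlap existed, the difference was 4.38 ± 0.12 (adjusted p = 9.4e-08), and its other probe sets were higher in muscle by 2.84 and 3.67. Sox6, which represses slow fibre genes, read 1134, 958 and 1029 against 105 to 350.3 (1.95 ± 0.19, adjusted p = 7.6e-05). The factor Six4, an activator of myogenic genes, read 1016, 893 and 1628 against 83.7 to 688 (1.39 ± 0.24, adjusted p = 0.0016). Both stood apart from the other tissues, and Six4 had its other 2 probe sets higher as well, by 1.07 and 1.16.

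Nkx3-2, a factor of cartilage and axial skeleton, was dim and higher in muscle (226, 449.9 and 343 against 45.4 to 216; 1.15 ± 0.22). Lower in muscle with no overlap were Meis1, Meis2, Foxo3 and Foxp1, at -1.09 ± 0.25, -0.98 ± 0.17, -0.95 ± 0.18 and -0.80 ± 0.14. Foxo3, a factor of stress response and muscle wasting, read 1307, 1297 and 1179 in muscle and 1397 to 3302 elsewhere, so its highest muscle array lay just under the lowest of the rest. Meis1 (26.7 to 56.6 against 57.6 to 348) was separated from heart by a similarly small gap, and its call was lost without the muscle hypoxia array (adjusted p = 0.052).

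**Figure D3:**
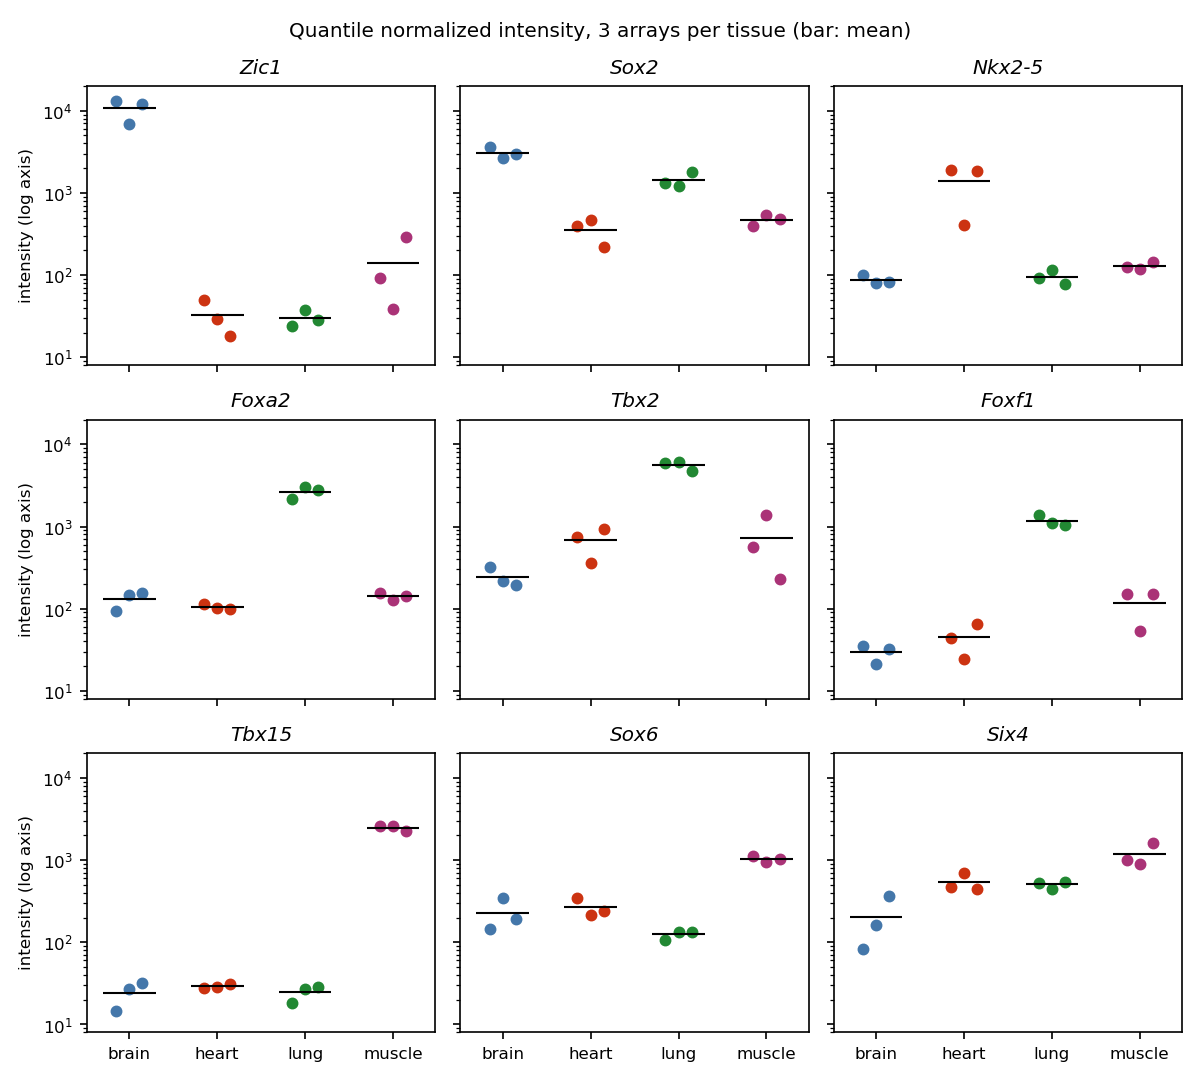
Points are the quantile normalized intensities of the 3 arrays of each tissue on a log axis, and bars are means, for 9 genes. Zic1 and Sox2 are highest in brain, Nkx2-5 in heart, Foxa2, Tbx2 and Foxf1 in lung, and Tbx15, Sox6 and Six4 in muscle, with no overlap between the highest tissue and the rest.

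Of the 32 Hox genes, 14 were higher in muscle (18.6% of all probe sets), 4 in lung (20.8%), 1 in heart (11.8%) and none in brain (16.0%). Lower were 9 in lung (24.9% of all probe sets), 3 in heart (12.0%), 2 in brain (16.9%) and 1 in muscle (19.0%). The muscle count lay above the background for higher values, and the other 3 below it. By the rank within an array, 7 were kept in muscle, 5 in lung, 4 in adipose and 3 each in brain and heart. Of the 20 protein-coding genes of paralog groups 6 to 13, 11 were higher in muscle and none lower, against 18.6% and 19.0% of all probe sets, with a median difference of 0.62. In lung none of those 20 was higher and 6 were lower, against 20.8% and 24.9%, with a median of -0.37. The 6 lower in lung are near that background. Of the 11 genes of groups 1 to 5, 4 were higher in lung (Hoxa3, Hoxa5, Hoxb4 and Hoxb5) and 2 lower, with a median of 0.30, while 2 were higher in muscle, near the background, and 1 lower, with a median of -0.07. The medians over all probe sets were 0.04 in muscle and -0.08 in lung. The split at group 5 was chosen after the values were seen, so these counts are a description.

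Hoxd8 read 2161, 2245 and 1782 in muscle and 304 to 1009.7 elsewhere (1.70 ± 0.20, adjusted p = 0.0002), and its other probe set was higher by 2.96. Hoxd10 read 1293, 1292 and 1711 against 96.5 to 1185 (1.68 ± 0.33, adjusted p = 0.0037), with a heart array closest below. Both Hoxd genes were thus highest in muscle on all 3 arrays. Hoxc6 (431 to 774 against 70.8 to 324), Hoxa9 (425 to 561 against 129 to 338) and Hoxc8 (689.9 to 1337 against 309.7 to 635) were higher by 1.29 ± 0.24, 1.08 ± 0.19 and 1.01 ± 0.18. Hoxc9 (207, 356 and 819 in muscle) overlapped with heart, which reached 245, though it was called (1.14 ± 0.24, adjusted p = 0.0057). Hoxb8, Hoxb7, Hoxa10, Hoxd9, Hoxd11, Hoxc4 and Hoxa2 made up the rest of the coding genes called higher, at 0.61 to 0.93.

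Hoxa5, which patterns the lung and its airway, read 1652, 1369 and 1086 in lung against 148 to 456 (1.75 ± 0.15, adjusted p = 1.5e-05). Hoxb5, which acts in lung branching, read 1149, 1151 and 986 against 218 to 810.2 (1.36 ± 0.17, adjusted p = 0.00015), with brain the next highest. Both lung ranges lay above every other array. Hoxb6 and Hoxb8 were kept in all 4 panel tissues and Hoxa4 in all but muscle. The chosen probe sets of Hoxa4 and Hoxb6 showed no called difference between tissues. Other probe sets of Hoxa4 disagreed: one was higher in lung (1.14, adjusted p = 0.0011) and lower in heart (-0.78), another was higher in muscle (0.95, adjusted p = 0.021), and the last was called nowhere. Hoxb8 was higher in muscle (0.93 ± 0.17) and lower in lung (-0.95 ± 0.17). The probe set that stands for Hoxb8 carries the suffix _r_at, as do those of Hoxa4 and Sox2, which marks relaxed probe selection rules. The other probe set of Hoxb8 was low in every tissue and called in none. Hoxa13, Hoxb13 and Hoxd13, the last group of the clusters, were kept nowhere.

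**Figure D4:**
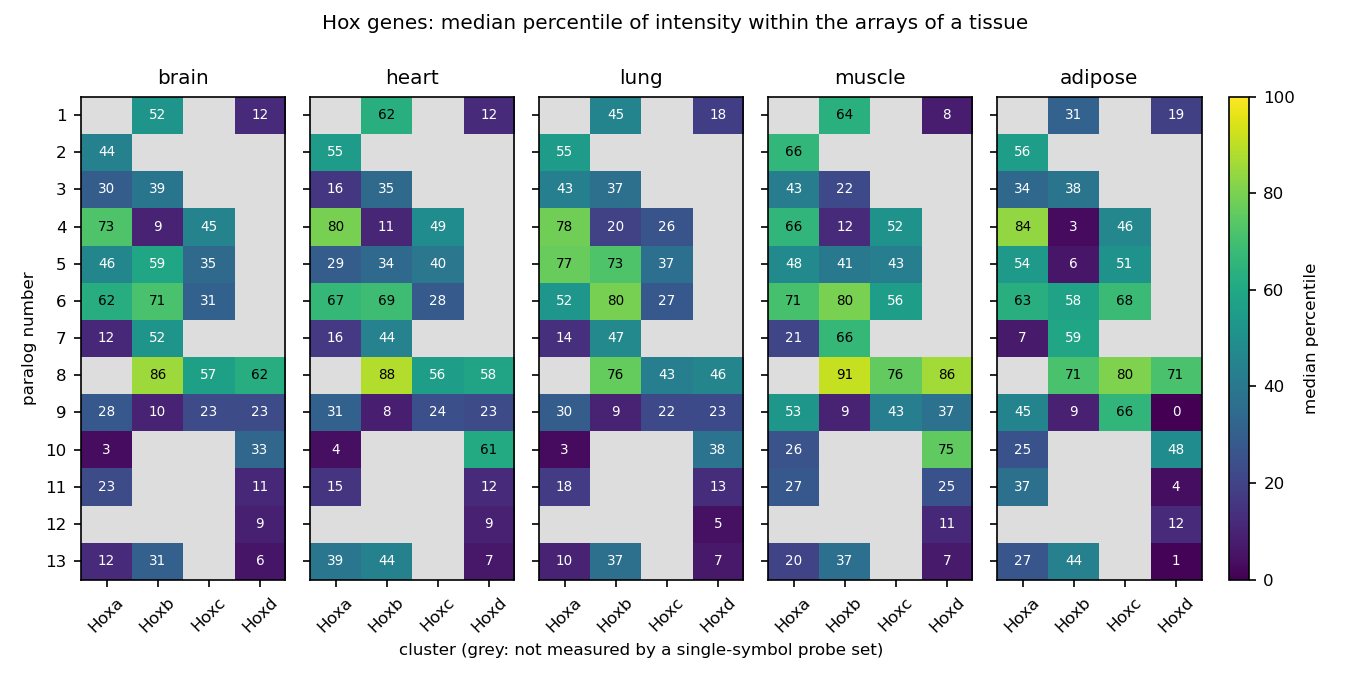
One grid per tissue shows the 31 coding Hox genes by cluster (columns) and paralog number (rows, from 1 at the top to 13), and colour and numbers give the median percentile of intensity over the arrays of the tissue. Hoxd8 and Hoxd10 are brighter in the muscle grid than in the others, Hoxa5 and Hoxb5 in the lung grid, and the lower right corner is dark in all 5.

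Kept in all 5 tissues by the chosen probe set were Foxo3, Foxo4, Hoxb8, Sox13 and Sox17. The other probe set of Hoxb8 was low in all 5. That of Sox17 was kept in lung alone and was low in brain, heart and muscle. Foxo4, a factor inhibited by insulin signalling, lay at a median percentile of 94.15 in brain, 96.13 in heart, 94.31 in lung, 96.3 in muscle and 86.22 in adipose. It was called only as slightly lower in lung (-0.54 ± 0.19, adjusted p = 0.046), where the hypoxia array read 1827 and the others 4495 and 4117. Sox13 read 2722 to 4277 in lung, above the 831 to 2472 of the other panel arrays (1.03 ± 0.16, adjusted p = 0.00053). Foxm1, a factor of dividing cells, was kept in all 4 panel tissues through a probe set with the suffix _g_at. That suffix marks probes shared by a group of sequences. The other probe set of Foxm1 was low in every tissue and called in none. Sox4, Foxd2 and Foxl1 were kept in at least 3 panel tissues, and Foxp1, a repressor of lung and neural programmes, in brain and lung (lung 0.87 ± 0.14).

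Exposure left no called trace in the panel. Sleep fragmentation and hypoxia, each against control with tissue as a term, called 0 of 118 genes and 0 of all probe sets (0%), with 3 and 1 of these genes at an unadjusted p under 0.05, against 556 and 601 of all 12422. The smallest p-values belonged to Hoxa11, Hoxd1 and Nkx3-2 for fragmentation, at 0.58 ± 0.23, 0.32 ± 0.13 and 0.51 ± 0.23 (limma adjusted p = 0.98). For hypoxia they belonged to Foxm1 (-0.58 ± 0.24), Foxo4 (-0.45 ± 0.21) and Foxk2 (0.49 ± 0.23), with a limma adjusted p of 0.94. None of these 6 could be told from no change.

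Within a tissue there is 1 array per exposure and so no test, and a change of at least 2-fold is only a description. In muscle 16 genes passed it under hypoxia and 11 under fragmentation (8.90% and 8.61% of all probe sets). In brain 11 and 3 did (5.80% and 4.18%), in heart 6 and 10 (6.29% and 5.01%) and in lung 3 and 3 (3.33% and 2.35%). Named as the largest pair per tissue were Nkx2-9 in muscle hypoxia (1291 against 232; 2.07) and in brain fragmentation (59.95 against 438; -1.76), Dlx2 in muscle fragmentation (366 against 47.4; 1.68) and Foxk1 in brain hypoxia (683 against 156; 1.62). In heart the fragmentation array was lower for Nkx2-5 (404 against 1925; -2.01) and Dlx5 (69.2 against 383; -1.53). In lung it was higher for Dlx4 (544 against 115; 1.59) and Hoxd10 (439 against 96.5; 1.47). The differences of Nkx2-9 in brain and muscle thus had opposite signs.

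Subcutaneous adipose kept 13 genes: Foxl1, Sox18, Foxo4, Sox13, Hoxa4, Hoxc8, Sox7, Pax5, Foxo3, Hoxb8, Hoxd8, Sox17 and Foxj1, in falling order of median percentile from 89.43 to 67.64. Only Hoxc8 was kept in adipose and in no panel tissue, although its muscle arrays lay at a median percentile of 75.9 with 1 array below the threshold. At or below 0 on all 8 adipose arrays were 17 of the 118 genes (14.4%, against 6.72% of all probe sets), among them Nkx2-5 (-1796 to -422) and Foxa2 (-1776 to -74.1). On at least 1 array 60 were (50.8%, against 36.1%). Adipose and panel values are on different scales and are set side by side with no test. In this bulk tissue fewer cells of a type and less RNA per cell cannot be told apart.

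Sox18 read 1842, 2258, 2116, 2001, 3319.6, 1360.4, 2483 and 1851, with the highest and the lowest values on the 2 Glucose NonHyp arrays. Sox7 (1877 and 668) and Sox17 (1249 and 579.8) had their extremes on the same 2 arrays. Endothelial markers were summed at 12491.7 on the first of these arrays, the highest of the 8, and at 6071.3 on the second. Their part in the Sox values was not tested.

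Tbx15, which also marks subcutaneous fat, read 299.6, 1166, 165, 523, 275, 498, 382 and 512. The high array, Con NonHyp 2, also had the highest summed muscle fibre markers of the 8 (158674.6). Zic1, which also marks brown fat, read 350.2 and 245 on Con NonHyp 1 and Con Hyp 1 and at most 67.6 on the other 6 arrays. Those 2 arrays had brown adipocyte markers summed at 34121.6 and 52475.6, where the other 6 had 28.8 to 4359.5. The part of muscle or brown fat in these values was not tested. Pax5, the B-cell identity factor, read 863, 1880.3, 1066 and 1577 on the Con arrays and 1108, 899, 1049 and 721 on the Glucose arrays. The groups overlapped, and no difference was called (-0.46 ± 0.33, adjusted p = 0.44), while lymphocyte markers were summed at 8397.5 to 11867.9 on Con and -345.4 to 1267 on Glucose arrays. Pax5 has another probe set that was low in every tissue, at a median percentile of 16.14 in lung and 4.73 in adipose. It was called in no panel tissue.

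Glucose was compared with Con over 4 arrays a side, on log2 values floored at 97.9, for the 50 genes that passed the filter on mean intensity. Hoxc9 was the only gene called: 1 of 50 was higher (2%; 4.04% of all probe sets tested) and none lower (3.56%), with 7 of 50 and 1789 of 7453 at an unadjusted p under 0.05. The 4 Glucose arrays lay above all 4 Con arrays for 2 genes, Hoxc9 and Hoxc8 (11.4% of all probe sets), and below for none (8.33%). All these shares lay under the background. The median difference of the 50 was 0.07, with 27 positive and 23 negative, and that of all probe sets 0.04.

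Hoxc9, a gene of the trunk whose probe set carries the suffix _f_at for probes shared by a sequence family, read 308, 388, 471 and 554 on the Con arrays and 1098, 718, 1308 and 929 on the Glucose arrays. The lowest Glucose array lay above the highest Con array, and the difference was 1.23 ± 0.26 (limma adjusted p = 0.033; 0.019 to 0.29 over the alternatives). The call was lost when any array but the second Glucose NonHyp array was left out, and the difference was 1.08 to 1.39 over all such fits. With no filter on mean intensity the call was lost as well (limma adjusted p = 0.072). With the s code of the titles as a term the call held (1.23, limma adjusted p = 0.040). Fits within the s2 or the s4 arrays alone have too few arrays to decide whether it holds there. Hoxc8 read 1008, 1224, 1291 and 860.4 against 2267, 1314, 2829 and 1684, without overlap but uncalled (0.84 ± 0.31, adjusted p = 0.15). Hoxc6 read 833, 757, 355 and 504 against 694, 539.6, 1877 and 1701. Its difference of 0.85 ± 0.24 (adjusted p = 0.081) rested on the 2 Glucose Hyp arrays, and the Glucose NonHyp arrays lay within the Con range.

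Hoxa5 and Hoxc5 were negative without a call. Hoxa5, also a factor of adipocytes, read 782, 719, 744 and 358 on the Con arrays and 371, 135, 158 and 330.2 on the Glucose arrays (-1.46 ± 0.44, adjusted p = 0.095), overlapping through the second Con Hyp array. For Hoxc5 the difference was -1.07 ± 0.41 (adjusted p = 0.16). By group, 7 of the 11 tested genes of groups 6 to 13 were positive and 4 negative (median 0.30), and 3 of 5 of groups 1 to 5 were positive and 2 negative (median 0.07). Smooth muscle markers were summed at 4532.3 to 7264.2 on Con and 8760.3 to 14043.5 on Glucose arrays, with no overlap. Only Acta2 among them separated (2306.1 to 3267.2 against 5187.1 to 11885.7), while Myh11, Tagln and Cnn1 overlapped. Lymphocyte (above), choroid plexus (1026.6 to 1342 against -251.7 to 660.1) and brown adipocyte sums (1450.5 to 52475.6 against 28.8 to 901.2) separated the other way. The choroid plexus sum rested on Folr1 (1066.2 to 1430.2 against -311.2 to 448.9), while Kl lay below 0 on every array. Ttr overlapped, with its highest values on Glucose arrays. Among the brown adipocyte markers Cidea separated, and Ucp1 and Cox7a1 overlapped. The muscle fibre sums overlapped, at 58736 to 158674.6 on Con and 14291.7 to 128155 on Glucose arrays, and the part of these cell types in the Hox values was not tested.

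Outside the filter, Hoxa13 lay at -48.2, -127, -584 and -237 on the Con arrays and at 229, 251, 198 and 279 on the Glucose arrays. Hoxa10 lay at -43.0, -27.8, -24.4 and -25.8 against 89.6, 331, 284 and 268. In both every Con array was below 0 and every Glucose array above it. Both were chosen after their values were seen. With every Con value of theirs under the floor, no test or fold is given.

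**Figure D5:**
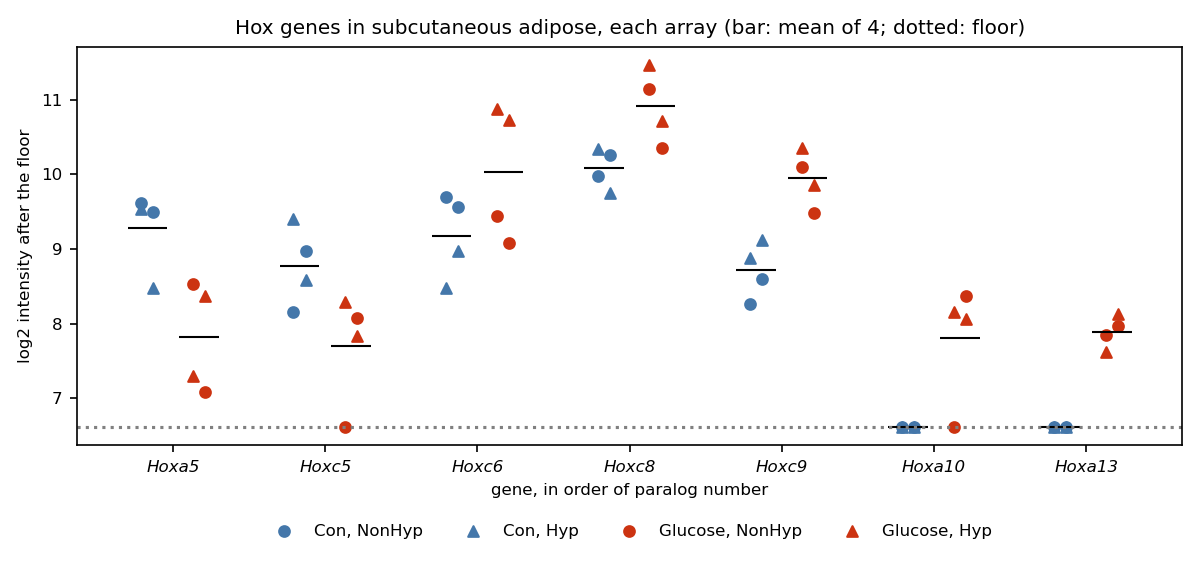
Points are log2 intensities of 7 Hox genes on the 8 adipose arrays after values under the floor (dotted line, 6.61) were set to it, with circles for NonHyp, triangles for Hyp, blue for Con, red for Glucose and bars for the means of 4 arrays. Hoxc8 and Hoxc9 are higher on all 4 Glucose arrays, Hoxa5 is mostly lower there, and Hoxa10 and Hoxa13 are at the floor on all 4 Con arrays.

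No gene was called for intermittent hypoxia in adipose. Hyp against NonHyp called 0 of 50 genes and 0 of all probe sets (0%), with 1 of 50 and 110 of 7453 at an unadjusted p under 0.05. The 3 positive genes with the smallest p-values were Hoxd10 (0.74 ± 0.28), Pbx3 (0.62 ± 0.29) and Hoxa9 (0.54 ± 0.28), and the negative ones were Pax3 (-0.22), Hoxc4 (-0.34) and Tbx15 (-0.38), all with a limma adjusted p of 1. Under at least 1 alternative the sign turned for Hoxd10, Pax3, Hoxc4 and Tbx15, so no direction is read from them. Both Con NonHyp values of Hoxd10 (33.31 and 11.45) lay under the floor. The interaction, the hypoxia difference in Glucose minus that in Con, also called 0 of 50 and 0 of all (0%), with 2 and 247 at an unadjusted p under 0.05. Hoxc6 had the largest value there, 2.45 ± 0.48, with a limma adjusted p of 1. Its Con values were lower under hypoxia and its Glucose values higher.

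Other regulators in the same programmes were described for context from lists compiled with earlier results of these data known. Of 79 other developmental transcription factors, 63 were measured and 42 differed among tissues, against 59.4% of all probe sets. Of these 63, 9 were higher and 16 lower in brain (16.0% and 16.9% of all probe sets), 12 and 6 in heart (11.8% and 12.0%), 13 and 24 in lung (20.8% and 24.9%), and 16 and 6 in muscle (18.6% and 19.0%). Several of these are near the background. Their median difference was -0.16 in brain, 0.01 in heart, -0.30 in lung and 0.16 in muscle, where that of all probe sets was -0.07, 0.00, -0.08 and 0.04. Tbr1 and Neurod1, factors of cortical and other neurons, were higher in brain by 3.49 ± 0.21 and 3.30 ± 0.29. Gata6 and Hand2, cardiac factors, were higher in heart by 2.04 ± 0.23 and 1.58 ± 0.28, Tcf21, a mesenchymal factor, in lung by 2.96 ± 0.17, and Myf6, a muscle factor, in muscle by 3.03 ± 0.18. In adipose 1 of 33 tested was higher in Glucose, against 4.04% of all probe sets (Eya2, a cofactor of Six4 and its relatives, 2.33 ± 0.36, limma adjusted p = 0.0095) and none was lower.

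Polycomb and trithorax proteins keep Hox genes silent or active. Of 19 listed, 15 were measured and 8 differed among tissues, against 59.4% of all probe sets. Of the 15, 6 were lower and 1 higher in muscle (19.0% and 18.6% of all probe sets), and 4 were higher and 1 lower in lung (20.8% and 24.9%), with Phc2 higher by 2.59 ± 0.17. Retinoic acid sets Hox boundaries. Of 16 genes of that pathway 13 were measured and 9 differed (59.4% of all probe sets). Of the 13, 5 were higher and 2 lower in lung (20.8% and 24.9% of all probe sets), and 1 and 5 in brain (16.0% and 16.9%). In heart 1 and 3 were (11.8% and 12.0%), and in muscle 3 and 4 (18.6% and 19.0%). The receptors Rara and Rarg were among those higher in lung, Rarg by 1.83 ± 0.13. In adipose 2 of 5 tested were higher in Glucose (4.04% of all probe sets): the receptor Rxrb (2.53 ± 0.60, limma adjusted p = 0.046) and Aldh1a1, which makes retinoic acid (1.56 ± 0.36, limma adjusted p = 0.042). None was lower.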

How the data were processed

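Expression arrays of 20 samples were analysed from the authors' deposited table, in which each probe set has a linear intensity. The summarisation, scaling and software are not given in the sources used here. Probe sets were named through the platform annotation: of 12488, 66 controls were left out, and 10833 of the rest had 1 symbol, 396 several and 1193 none. Genes and lists were chosen with earlier results of these data known.

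Panel arrays were quantile normalized and log2(intensity + offset) was taken, with the offset of 97.9 at the 20th percentile of positive values. Tissue and exposure were fitted for all 12422 probe sets (6 residual degrees of freedom). Adipose values kept the deposited scaling, were floored at the same offset and logged, and 7453 probe sets with a mean above the 40th percentile were fitted by 4 groups (4 residual degrees of freedom). limma 3.58.1 in R 4.3.3 gave moderated two-sided tests, Benjamini-Hochberg adjusted over all probe sets fitted and called under 0.05. The scripts were tested on simulated data. The number of arrays limits the precision.

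Named genes were up to 8 higher and 4 lower per tissue among those called without overlap between arrays, up to 15 kept per tissue, the called or 3 smallest p-values elsewhere, the 2 largest differences from control within a tissue, and a standing list of known regulators. Alternatives varied the normalization, offset, filter, variance trend, exposure term, s code, replicate block, percentile, probe set and each array.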

Additional observations from a re-analysis of the deposited data

Results flagged for a closer look

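Foxl1, a forkhead factor of gut and other mesenchyme, had 1 adipose array far from the others of its group. It read 2468, 2543 and 2406 on 3 Con arrays and 752 on the second Con Hyp array. The gap to the nearest of the others took up 0.955 of the range of the 4 log2 values (9.55 to 11.31), above the critical value of Dixon's test for 4 samples. It was 1 of 28 sets of 4 arrays examined, and chance alone marks about 1 in 20 such sets. The Glucose arrays, at 704, 3448, 1184 and 3292, spread just as widely, and Glucose and Con did not differ (-0.07 ± 0.62, limma adjusted p = 0.96).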

How the results depend on the processing

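No called difference changed its direction under the alternatives run. Of the counts recomputed, 197 stayed within 1.5 times the main value and 26 did not. Of the gene results, 1112 kept their direction and side of the threshold, 15 lost a call, 1 gained it and 7 changed sign. The last were uncalled differences for adipose Hyp minus NonHyp: with the offset at the 40th percentile Hoxd10 went to -0.095 and Hoxc4 to 0.059, Tbx15 went to 0.42 within the s2 arrays and Pax3 to 0.006 within the s4 arrays. Leaving out 1 array gave -0.75 to 0.06 for Hoxc4 (positive without the second Glucose Hyp array) and -0.86 to 0.12 for Tbx15 (positive without the second Con NonHyp or the first Con Hyp array). Keeping only panel probe sets with a high mean over the 12 arrays left 48 of the 118 genes to test and called 35 among the 4 tissues, 15 in brain, 11 in heart, 28 in lung and 25 in muscle. No share of all probe sets is given for that fit, so these counts cannot be read against a background. Leaving out 1 array gave 35 to 52 in lung. In adipose the Glucose count of 1 became 2 with the offset at the 10th percentile (Hoxd10 joined), at the 40th (Hoxc6 joined, adjusted p = 0.043) and with the filter at the 20th (Hoxa13, whose Con values all lie at the floor, joined). Hoxd10 has both Con NonHyp arrays under the main floor (33.31 and 11.45), so its difference depends on the offset. With no spread on its Con side, the Hoxa13 call is not read as a result. The Glucose count became 0 with the replicate block. With no filter on mean intensity Hoxc9 lost its call (limma adjusted p = 0.072), and Hoxa13 was the gene called in its place. Hoxc9 stayed called with the s code as a term. Fits within the s2 or the s4 arrays alone have too few arrays to decide. Leaving out 1 array mostly lost the Hoxc9 call, as given above. Whether replicate letters pair the samples is not settled. Same-letter deviations correlated at 0.181 between the Con groups, 0.415 between the Glucose groups and -0.137 to -0.046 across title words. Within a title word same-letter arrays correlated at 0.934 to 0.959, against 0.92 to 0.944 for arrays of 1 group. In the Glucose groups same-letter arrays also share the s code, so letter and s code cannot be told apart there. Kept counts moved to 23 in heart and 22 in adipose at the 50th percentile, to 9 in brain, 16 in lung, 13 in muscle and 5 in adipose at the 70th, and to 22 in heart with the median over arrays. These too are given without a share of all probe sets and are only a description. The cause of these moves was not tested, beyond fewer genes or arrays entering some of them. Signal over background limits the dim genes.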

Other observations

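Probe sets that read several Hox genes at once were outside the count of 118. A probe set annotated to Hoxb8 and Hoxb7 was lower in lung (-1.18, limma adjusted p = 0.00021) and higher in muscle (0.71, limma adjusted p = 0.0061). Of 2 probe sets annotated to Hoxd4 and Hoxd3, both were lower in lung, by 0.96 and 0.84 on the log2 scale, and neither was called in muscle.

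Other probe sets of the same gene mostly had the sign of the chosen one where that was called. In muscle 12 were called with the same sign, 2 had the same sign uncalled, 1 had the opposite sign uncalled and 1 was called with the opposite sign. The last is Zic2, a midline neural factor, whose chosen probe set was higher in muscle (0.62) while the other was higher in brain (1.59) and lower in muscle (-0.38). In lung 10 were called with the same sign and none with the opposite sign. Sox17 had a second probe set that was higher in lung by 2.87, and of the other probe sets of Tbx2 the first was higher in lung by 2.55 and the second was not (-0.27).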
